A study of Callithrix jacchus with 4 samples.

Results

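*MKI67*, *TOP2A*, *CENPF*, *ASPM*, *KIF11*, *BUB1* and *CENPE* are 7 genes whose products act in dividing cells. They were chosen by name, and 6 of the 7 were measured among the 32323 genes listed for injured nuclei and the 16383 listed for control nuclei. *CENPF* was matched by neither its symbol nor the table of gene names and is not analysed here. The measurements came from single-nuclei RNA sequencing (snRNAseq) of gray matter of the primary visual cortex (V1) of adult marmosets. The injured cohort was 3 animals that received injections of endothelin-1, which narrows blood vessels, into V1 of the left hemisphere 7 days earlier. Each gave 1 library (F1619, F1565 and F1711, here injured replicates 1, 2 and 3) from tissue that took in the core and the surround of the stroke. The control cohort was V1 of 3 uninjured adults, whose nuclei were pooled in 1 library, and how far those 3 differ from each other is therefore unknown. The labels give no genetic change or drug other than endothelin-1 for any animal. Nuclei isolation (control nuclei were sorted on a DNA dye), doublet removal, sequencing site and instrument also differed between the cohorts, and their part in any difference cannot be told apart from that of the injury.

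A cell that commits to divide copies its DNA in S phase, then condenses and separates the copies in G2 and M phases. Ki-67, from *MKI67*, coats mitotic chromosomes and is the standard histological label of cycling cells, and *TOP2A* encodes the topoisomerase that disentangles the copied DNA. *ASPM* organises the spindle poles, *KIF11* is the motor that pushes the poles apart, *BUB1* is a kinase of the spindle checkpoint, and *CENPE* is a motor that carries chromosomes to the middle of the spindle. Mature neurons do not divide, whereas microglia, the brain's resident macrophages, oligodendrocyte progenitors and vessel cells keep that ability and are known to divide around an infarct.

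The injured libraries held 7500, 12527 and 9510 nuclei and the control library 8610, and each nucleus carried 1 of 7 deposited cell types. These were microglia, endothelial cells (Endo), oligodendrocyte progenitors (OPC), astrocytes (Astro), oligodendrocytes (Oligo), inhibitory neurons (InN) and excitatory neurons (ExN). Depth is given in unique molecular identifiers (UMIs), each counting 1 captured RNA molecule. The median nucleus held 3531 to 4504.5 UMIs in the injured libraries against 2117 in the control, and between 49 and 71 of a library's barcodes also occurred in another library. Levels are given in CPM, the UMIs of a gene or list in every 1000000 UMIs of the summed nuclei. In this paragraph marker lists are summed over the genes listed in both tables. The marker sums of classes of injured nuclei further below take every marker listed for injured nuclei and are not comparable with these. The 6 shared microglial markers summed to 2631 to 2900 CPM in injured microglia and to 2812 CPM in control microglia, which were only 129 nuclei with a median of 793 UMIs. The similar sums held unlike parts, with *CD74* at 1007 to 1416 CPM against 8.03 CPM, *CSF1R* at 174 to 212 CPM against 795 CPM and *CX3CR1* at 5.81 to 14.5 CPM against 233 CPM. Monocyte and macrophage markers were at 1708 to 3191 CPM in injured microglia and 1069 CPM in control microglia, and lymphocyte markers at 335 to 430 CPM against 112 CPM. By staining, the paper assigned nearly all macrophages of the ischemic zone at 7 days to the periphery, without excluding resident microglia there. None of the 7 deposited types is named for such cells. The label microglia is kept here, and how many of its nuclei came from the periphery was not tested. Control Endo nuclei went against their label in part, with endothelial markers at 931 CPM against 3548 to 4264 CPM in injured Endo, and fibroblast and mural markers at 5355 CPM against 1809 to 3074 CPM. The part of these differences in the results below was not tested.

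Nuclei with UMIs of at least 2 of the 6 genes were on average most frequent in injured microglia. They were 374 of 2823 microglia in injured replicate 1 (13.2%, exact Clopper-Pearson 95% interval 12 to 14.6%), 120 of 2692 in injured replicate 2 (4.46%, 3.71 to 5.31%) and 216 of 2218 in injured replicate 3 (9.74%, 8.54 to 11%), a mean of 9.15% ± 4.42 (SD, n = 3). None of the 129 control microglia did, which in whole nuclei allows a share of up to 2.33%, below all 3 injured animals. Control microglia were shallower, with a median of 793 UMIs against 3026, and at an equal depth (below) they set no such limit. These intervals and limits cover counting error only. Replicate 2 stood below the other injured animals in microglia, Endo and OPC alike. With 3 injured libraries and 1 control library no permutation test of a share can give p below 0.25, so shares are given without a test.

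OPC and Endo came next among the cells that can divide. In OPC the share was 10.2% (29 of 284 nuclei, 6.95 to 14.3%), 2.22% (10 of 451, 1.07 to 4.04%) and 6.48% (26 of 401, 4.28 to 9.36%) in injured replicates 1 to 3. In Endo it was 4.41% (45 of 1021), 1.04% (18 of 1735) and 3.32% (56 of 1688). No control nucleus of either type qualified, which allows up to 1.75% of 171 OPC and up to 1.66% of 181 Endo. The OPC limit lay below the share of all 3 injured animals, but within the interval of replicate 2 (1.07 to 4.04%). In Endo the limit lay above the share of replicate 2, so a difference from that animal was not detectable at this depth. Control OPC were shallower, with a median of 962 UMIs. The intervals of OPC and microglia overlapped in all 3 animals.

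Excitatory neurons set the background of this measure, and it was not low in whole nuclei. A UMI of at least 2 of the genes was found in 7.2% (134 of 1861), 4.36% (199 of 4562) and 4.98% (150 of 3013) of injured ExN and in 1.70% (92 of 5402) of control ExN. Their median depth was 5949 UMIs in the injured cohort and 2678 in the control, against 3026 UMIs for injured microglia, 4239.5 for injured OPC and 1813 for injured Endo. Microglia were above ExN in each injured animal, but in replicate 2 only by 4.46% against 4.36%. The order was the other way for a single gene, since at least 1 of the genes was found in 37.4% ± 2.79 of injured ExN, 20.9% of control ExN and 23.4% ± 8.14 of injured microglia (31.4%, 15.2% and 23.8%). In control microglia, which were shallower, it was 0.775% (1 nucleus of 129, interval 0.02 to 4.24%).

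At an equal depth the order changed. The share expected if each nucleus had been read to 1000 UMIs was 5.64%, 2.44% and 3.96% in injured microglia, a mean of 4.01% ± 1.61, and 0.212% ± 0.0492 in injured ExN against 0.168% in control ExN. OPC were at 1.85%, 0.680% and 2.62% and Endo at 2.20%, 0.399% and 1.56%. Astro (0.0973% ± 0.0492), Oligo (0.0932% ± 0.0644) and InN (0.184% ± 0.178) lay at or below the neuronal level. So microglia, OPC and Endo stood above ExN in every injured animal, whereas Astro, Oligo and InN did not do so in all 3. This measure leaves out nuclei under 1000 UMIs, 1235 of the 4444 injured and 96 of the 181 control Endo among them. It also leaves out 600 of the injured and 92 of the 129 control microglia. Only 37 control microglia remained, none of them positive, too few to set a limit below any of the injured animals at this depth. Of control OPC 80 remained, none positive, too few to set a limit below the injured OPC at this depth, and a UMI of at least 1 member was expected in 11.1% of them against 8.9% ± 1.15 of injured OPC.

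**Figure D1:**
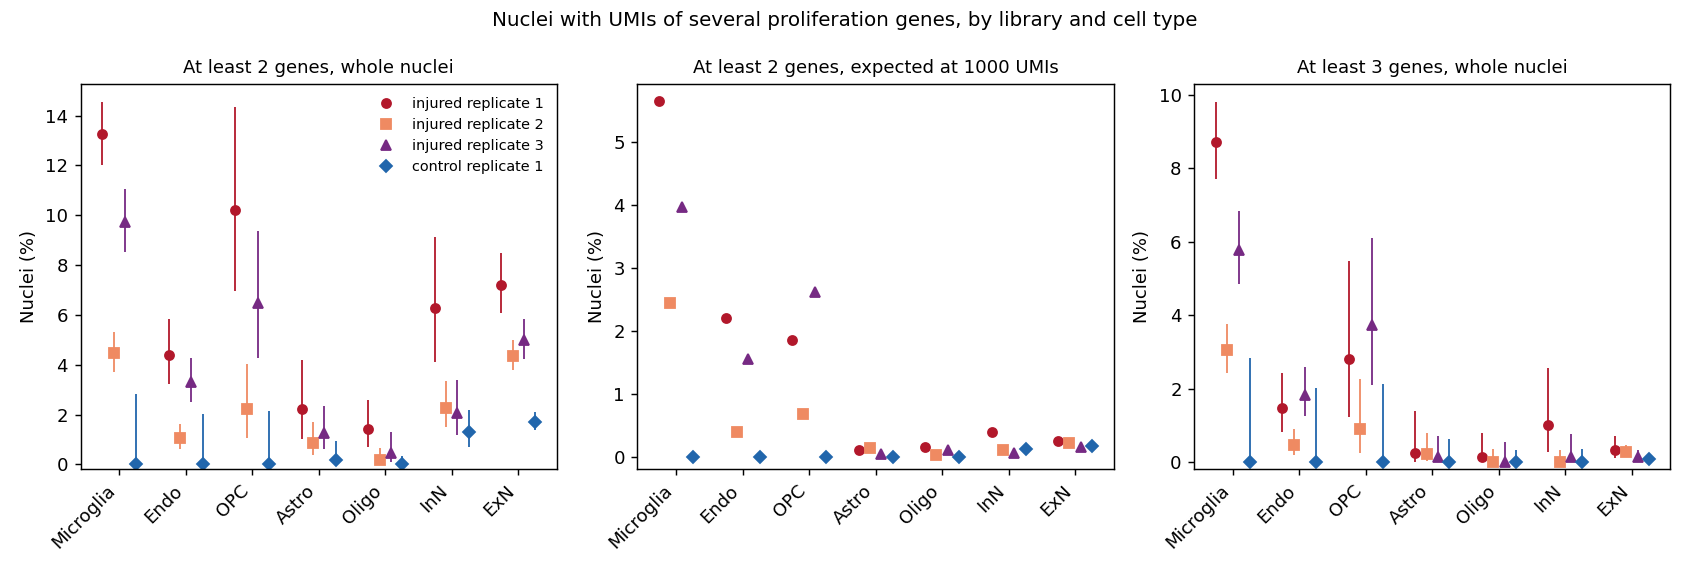
Percent of nuclei (y axis) with UMIs of at least 2 of the 6 genes in whole nuclei (left), the same share expected at 1000 UMIs per nucleus (middle) and the share with at least 3 genes (right), by cell type (x axis). Each point is 1 library and bars are exact 95% intervals. At 1000 UMIs the 3 injured microglia points (5.64%, 2.44% and 3.96%) and those of Endo and OPC lie above the neurons, which are at 0.212% on average in ExN.

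A stricter count left ExN near 0 without any thinning. At least 3 of the genes were found in 246 (8.71%), 82 (3.05%) and 128 (5.77%) microglia of injured replicates 1 to 3, in 22 of all injured ExN (mean 0.239% ± 0.0970) and in 4 of 5402 control ExN (0.074%). Of InN, 4 of 399 nuclei had them in replicate 1, none of 1098 in replicate 2 and 1 of 722 in replicate 3. Across the injured cohort 569 nuclei passed, of which 456 were microglia (80.1%), although microglia made up 26.2% of injured nuclei. Endo gave 54 of them, OPC 27, InN 5, Astro 4 and Oligo 1. The microglial part was 87.5%, 75.9% and 71.1% in the 3 animals, so it was the majority in each. Only 3 of the 456 microglia shared a barcode with another library.

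Among injured cell types every measured member had its highest mean level in microglia, and all but *CENPE* had no UMI in control microglia. Levels of different genes are not set against each other. *MKI67* stood at 43.2, 29.9 and 33.3 CPM in microglia of injured replicates 1 to 3, from 521, 215 and 266 UMIs. *TOP2A* was at 171.6, 76.2 and 118.7 CPM, with up to 45 UMIs in 1 nucleus. Pooled over the 3 animals, *TOP2A* was at least 5.43-fold higher than the control level that 3 UMIs over that library would give, and *MKI67* at least 1.53-fold. These bounds hold for the pooled level and not for each animal. Replicate 2 lay nearest to the control limit of 24.1 CPM for both genes. The control library, with few and shallow microglia, thus bounded *MKI67* only loosely.

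The spindle genes in microglia followed the same order of animals. *ASPM* was at 72.9, 31.6 and 57.1 CPM, pooled at least 2.38-fold higher than the control limit, and *KIF11* at 37.5, 18.4 and 31.8 CPM, at least 1.28-fold higher. *BUB1* was at 18.3, 6.68 and 13.3 CPM, which is at or under the control limit, so no fold is given. *CENPE* was at 88.2, 46.9 and 70.6 CPM against 8.03 CPM from a single control UMI, a ratio of 8.98 with a counting interval of 1.61 to 355. Replicate 1 was the highest and replicate 2 the lowest for all 6 genes. Each injured animal lay above the control value for all of them, although the control limit of 24.1 CPM lies above *KIF11* in replicate 2 and *BUB1* in all 3.

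Endo and OPC followed microglia for most members. *MKI67* averaged 35.5 ± 6.90 CPM in microglia, then 18.1 ± 11.3 CPM in Endo and 11.03 ± 1.67 CPM in OPC (SD, n = 3). Its highest mean elsewhere was 5.58 CPM, in Oligo, where the highest library was at 7.46 CPM. The values of microglia and Endo did not overlap, whereas those of Endo and OPC did. *TOP2A* averaged 122 ± 47.8 CPM in microglia, 58.8 ± 30.1 CPM in OPC and 46.1 ± 19.5 CPM in Endo. Microglia and OPC overlapped between animals, although microglia were higher within each of the 3. *ASPM* (53.9 ± 20.8 CPM in microglia, 14.5 ± 7.12 CPM in Endo) and *KIF11* (29.2 ± 9.81 CPM, 12.5 ± 5.62 CPM) separated microglia from Endo without overlap. Endo and OPC could not be ordered beyond their spread for any of these 4 genes.

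*CENPE* behaved unlike the rest, because neurons carried it. It averaged 61.2 ± 15.8 CPM in injured ExN (58.9, 78.0 and 46.6 CPM) against 63.2 CPM in control ExN, a ratio of 1.002 with a counting interval of 0.936 to 1.07. Injured microglia, at 68.6 ± 20.7 CPM, overlapped injured ExN and were higher in only 2 of the 3 animals. *CENPE* gave 69.2% of the members' UMIs in injured ExN and 72.2% in control ExN, but 21.1% in injured microglia, where *TOP2A* gave 38.3%. A UMI of it was found in 26.3% ± 4.34 of injured and 15.7% of control ExN. *KIF11* was the other member with more than a few CPM in control ExN, at 18.5 CPM against 11.1, 9.87 and 11.6 CPM in injured ExN. The other 4 genes were picked after their control ExN levels were seen, so their low share in ExN is no independent result. At least 2 of these 4 were found in 6.75% ± 3.21 of whole injured microglia, 3.17% ± 2.02 of OPC, 1.87% ± 1.12 of Endo, 0.360% ± 0.147 of ExN and none of 5402 control ExN, which allows up to 0.0555%.

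**Figure D2:**
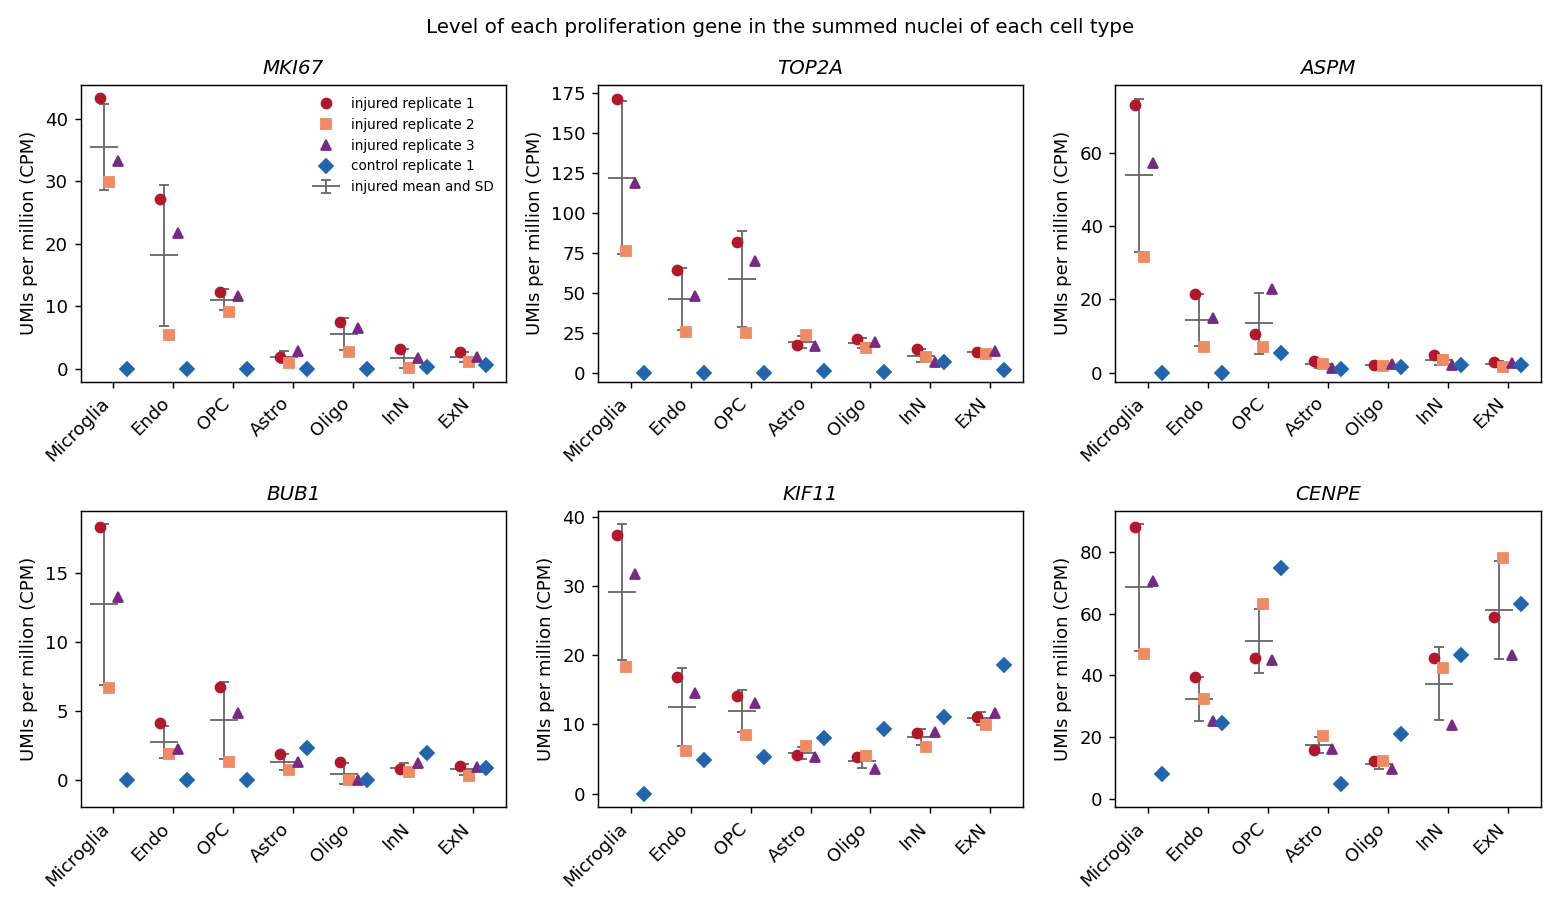
Level of each measured gene in CPM (y axis) in the summed nuclei of each cell type (x axis). Points are libraries, horizontal lines and bars the mean and SD of the 3 injured animals. Injured microglia have the highest mean in all 6 panels, while *CENPE* in ExN is as high in the control (63.2 CPM) as in the injured animals (61.2 CPM).

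Injured against control was tested on summed counts within each cell type with edgeR, calling a gene at a Benjamini-Hochberg adjusted p below 0.01 and a natural-log fold change above 0.25. In microglia all 6 members were higher in the injured animals and none was called. All but *CENPE* had no UMI in control microglia, so no other direction was possible for them and their shared direction is not read as a result. The tested genes as a whole also leaned upward in this comparison, with a median of 0.42 on the log2 scale. No gene at all was called there (0% of 13470), although 2857 had an unadjusted p below 0.05 and DESeq2 called 381, none of them a member. Adjusted p by edgeR was 0.0964 for *MKI67*, 0.114 for *TOP2A*, 0.180 for *CENPE*, 0.226 for *ASPM*, 0.260 for *KIF11* and 0.525 for *BUB1*. In counts simulated for this comparison 15.0% of genes given a 4-fold change were called. Of the fixed lists of other cell cycle genes, none of 56 G2/M, 40 S phase or 21 regulator genes was called, and the smallest adjusted p was 0.0407, for the S phase gene *BRIP1* (log2 fold change 3.61, SE 0.51).

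One member passed the test, in one cell type. *TOP2A* in ExN was at 13.3, 11.8 and 13.6 CPM in the injured animals (169, 297 and 256 UMIs) and at 2.11 CPM in the control (36 UMIs), so all 3 lay above it. The log2 fold change was 2.72 (SE 0.25, edgeR adjusted p = 0.00161), where 8.34% of genes tested in ExN were called and 4.3% were called higher. The adjusted p was 0.0147 without injured replicate 1, which ends the call, as does the study's condition of a UMI in 10% of nuclei. The other 5 members in ExN were not called, among them *KIF11* with a log2 fold change of -0.66 (SE 0.18, adjusted p = 0.0434) and *CENPE* with 0.07 (SE 0.27, adjusted p = 0.863).

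The ExN value of *TOP2A* came as single molecules. An injured ExN nucleus with *TOP2A* held 1.08 UMIs of it on average, an Astro nucleus 1.13 and an Oligo nucleus 1.03, against 1.78 in Endo, 2.89 in OPC and 4.33 in microglia. Injured Oligo and Astro showed similar levels, with *TOP2A* at 18.7 ± 2.87 and 19.4 ± 3.93 CPM, each against 1 control UMI. The ratios were 23.9 (counting interval 4.20 to 952) in Oligo and 16.7 (2.96 to 664) in Astro, and the log2 fold changes of 4.56 (SE 0.72, adjusted p = 0.0150) and 4.12 (SE 0.79, adjusted p = 0.0183) were not called by edgeR. There 1.2% and 2.07% of all genes were called. The part of RNA freed from other cells in these levels was not tested.

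In Endo, OPC and InN no member was called either, where 6.87%, 0.0697% and 5.57% of all genes were. *TOP2A* in Endo was at 64.5, 25.8 and 48.1 CPM and had no UMI in the control, so that the pooled injured level was at least 2.94-fold above the control limit of 14.7 CPM (edgeR adjusted p = 0.0641). In OPC it was at 81.9, 24.8 and 69.8 CPM, pooled at least 3.76-fold above a control limit of 16.05 CPM (adjusted p = 0.192). Replicate 2 lay nearest to the limit in both types. *MKI67* in Endo was at 27.1, 5.48 and 21.8 CPM, pooled at least 1.14-fold above the control limit, although replicate 2 lay below it. *CENPE* in OPC was at 45.6, 63.3 and 45.1 CPM against 74.9 CPM, with the control above every injured animal (log2 fold change -0.42, adjusted p = 0.599).

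Within the injured cohort, where the 3 animals replicate each other, microglia were compared with the mean of the other 6 cell types with animal as a block. All 6 members were called higher in microglia, against 30.6% of the 14139 genes tested. The cell types were assigned from these same counts, so the p-values are not read as an independent test. The size of a difference is given by its log2 fold change. The p-values set it against the scatter left after animal and cell type are fitted. That scatter holds how the differences between cell types vary from animal to animal, but not a shift shared by all types of an animal. The log2 fold change was 3.53 (SE 0.16, edgeR adjusted p = 1.18e-14) for *ASPM*, 3.24 (SE 0.19, 1.16e-12) for *BUB1* and 3.08 (SE 0.18, 1.56e-12) for *MKI67*. It was 2.36 (SE 0.16, 1.09e-11) for *TOP2A*, 1.73 (SE 0.14, 2.95e-10) for *KIF11* and 1.19 (SE 0.15, 2.08e-07) for *CENPE*. The members' median was 2.72, and that of all genes -0.04. *CENPE* was not called against ExN alone (0.07, SE 0.19, adjusted p = 0.728), against OPC alone (0.45, SE 0.22, 0.0808) or in nuclei with at most 2500 genes (0.38, 0.0264). Under that condition of a UMI in 10% of nuclei, 2 of the 6 members were called higher, as were 2838 of the 14139 genes.

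The rest of the cell cycle machinery in microglia was read from 3 further lists. Of 57 G2/M genes tested 51 were called higher and 1 lower, with a median log2 fold change of 1.72. The 5 with the smallest p were *GAS2L3* (3.85, SE 0.14, edgeR adjusted p = 4.01e-16), *SMC4* of the condensin complex (1.97, SE 0.08), the kinesin gene *KIF20B* (2.67, SE 0.11), *CDCA8* of the chromosomal passenger complex (3.34, SE 0.16) and *NDC80* of the outer kinetochore (3.99, SE 0.20). Of 38 S phase genes 22 were called higher and 2 lower, with a median of 0.84. Those with the smallest p included *GMNN*, the inhibitor of re-replication (2.21, SE 0.11), the helicase gene *BRIP1* (1.71, SE 0.11), *RPA2* of the single-strand binding complex (1.52, SE 0.11) and *RRM2*, a subunit of ribonucleotide reductase (3.75, SE 0.27). The G2/M list thus had both the larger share of calls and the larger median. With a UMI in 10% of nuclei required, 11 G2/M and 7 S phase genes were called higher, close to the share of all genes (2838 of 14139), and in nuclei with at most 2500 genes 33 and 17.

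Of 20 regulators of the cell cycle 13 were called higher and 1 lower, with a median of 0.80. The pocket protein gene *RBL1* (1.905, SE 0.10), the E2F factors *E2F3* (1.70, SE 0.10) and *E2F2* (3.42, SE 0.28), the D-type cyclin *CCND3* (1.83, SE 0.12) and the mitotic transcription factor *FOXM1* (2.26, SE 0.21) had the smallest p. The 10% condition left 7 regulators called higher.

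**Figure D3:**
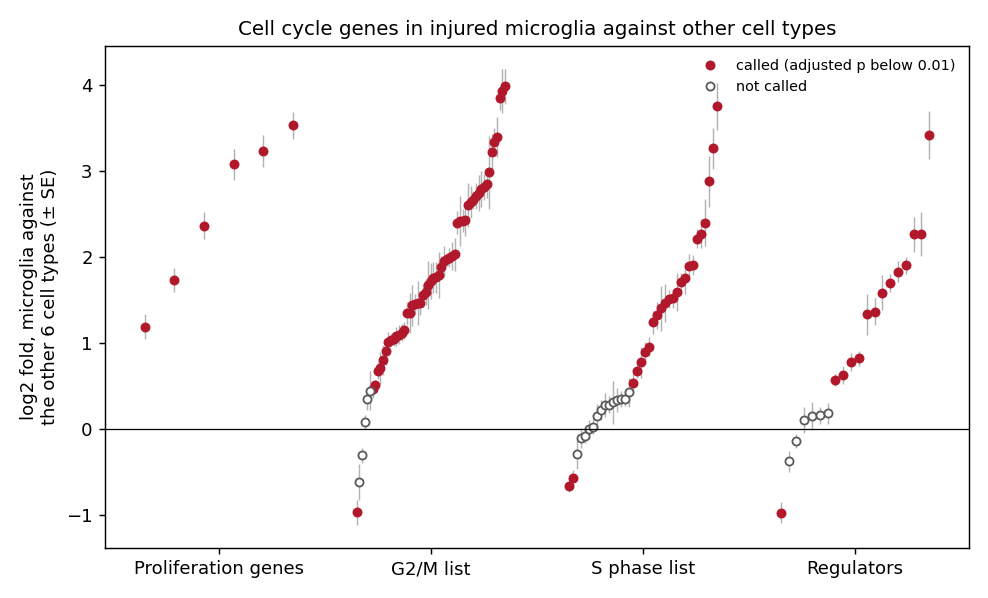
Log2 fold change of injured microglia against the mean of the other 6 cell types (y axis, bars are SE) for the measured proliferation genes and the G2/M, S phase and regulator lists (x axis, genes sorted within a list). Filled points passed edgeR's test at an adjusted p below 0.01. All 6 proliferation genes and 51 of 57 G2/M genes are filled and above 0, against 22 of 38 S phase genes (2, 11 and 7 where a UMI in 10% of nuclei is required).

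Endo and OPC were set against neurons in the same fit, a comparison added after the data were seen. In Endo 4 members were called higher, where 29.5% of all genes were, and none of them met the condition of a UMI in 10% of nuclei. These were *MKI67* (2.99, SE 0.29, edgeR adjusted p = 8.07e-09), *ASPM* (1.86, SE 0.25), *TOP2A* (1.56, SE 0.23) and *BUB1* (1.36, SE 0.36), while *CENPE* was called lower (-0.91, SE 0.19, with 37% of all genes called lower) and *KIF11* stood at 0.00. The call of *BUB1* ended without injured replicate 1 (adjusted p = 0.0196) or 2 (0.0107), and that of *CENPE* with library size alone (-0.57, adjusted p = 0.0128) and in nuclei with at most 2500 genes (-0.42, 0.0556). In OPC the same 4 were called higher, where 22.4% of all genes were, again none under the 10% condition, with *MKI67* at 2.62 (SE 0.39), *BUB1* at 2.25 (SE 0.39), *TOP2A* at 2.19 (SE 0.25) and *ASPM* at 2.12 (SE 0.30). *CENPE* (0.03) and *KIF11* (0.23) were not called in OPC, and in nuclei with at most 2500 genes *MKI67* was not either (2.16, adjusted p = 0.0149). *BUB1* passed the filter on low counts in neither comparison of those nuclei. Among the 57 G2/M genes 28 were called higher and 7 lower in Endo, and 30 higher and 6 lower in OPC. Of 38 S phase genes 12 were called higher and 13 lower in Endo, close to the shares of all genes there (29.5% and 37%). In OPC 15 of them were called higher and 2 lower. Of the 20 regulators 8 were called higher and 5 lower in Endo, and 11 higher and 3 lower in OPC.

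Astro and Oligo differed from that pattern. In Astro no member was called higher than in neurons by edgeR, where 25.4% of all genes were. *TOP2A* stood at 0.77 (SE 0.27, adjusted p = 0.0191) and was called by DESeq2 (adjusted p = 0.00780) and with no filter on low counts (0.00594), and *CENPE* was called lower (-1.39, SE 0.22, with 24.5% called lower). In Oligo *MKI67* was called higher (1.77, SE 0.45, adjusted p = 0.00180, with 23.5% of all genes called higher) and *CENPE* lower (-1.997, SE 0.26, with 24.6%). The *MKI67* call in Oligo ended without injured replicate 1 (adjusted p = 0.0228) or 3 (0.0247), in nuclei with at most 2500 genes (0.0193) and under the 10% condition. Of the G2/M genes 8 were called higher and 10 lower in Astro, and 10 higher and 3 lower in Oligo.

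Single nuclei showed whether the genes occurred together. Of the 7733 injured microglia 5911 had none of the 6 genes, 1112 had 1, 254 had 2, 145 had 3, 123 had 4, 104 had 5 and 84 had all 6. The decline was slow beyond 2 genes. Among ExN, 3035 nuclei had 1 gene, 461 had 2, 19 had 3 and 3 had 4, with none above. Endo (29, 15, 8 and 2 nuclei with 3, 4, 5 and 6 genes) and OPC (9, 5, 11 and 2) reached all 6, whereas no Astro, InN or Oligo nucleus had more than 3.

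**Figure D4:**
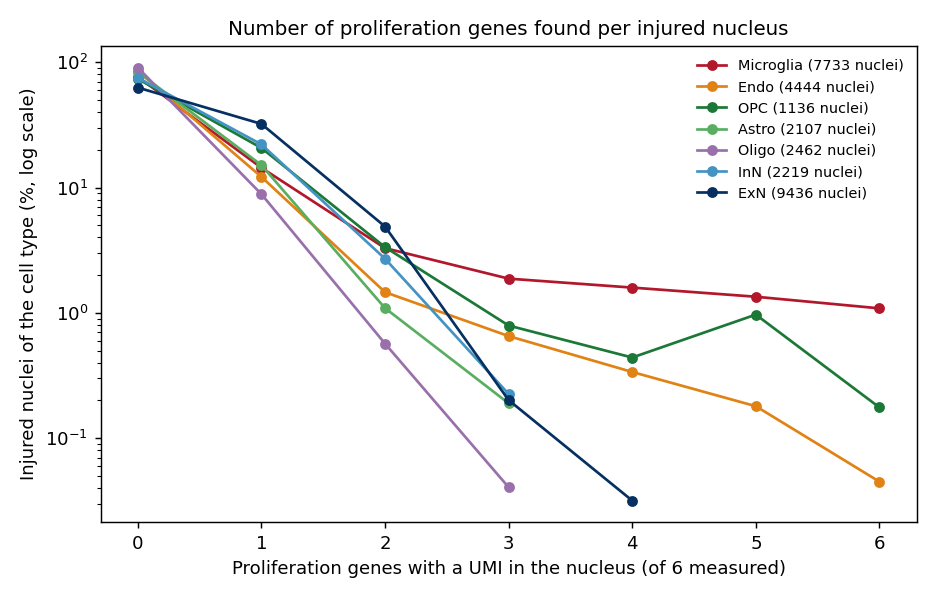
Percent of the injured nuclei of a cell type (y axis, log scale) by the number of the 6 genes found in the nucleus (x axis). A point is absent where no nucleus had that number. ExN fall from 3035 nuclei with 1 gene to 3 with 4, while 84 microglia, 2 Endo and 2 OPC have all 6.

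*MKI67* and *TOP2A* were found in the same microglia. Of microglia with *MKI67*, 57.4% (170 of 296), 56.2% (63 of 112) and 60.5% (92 of 152) also had *TOP2A* in the 3 animals, against 9.81%, 4.3% and 6.73% of those without *MKI67*. In ExN with *MKI67* the share was 3.23% (1 of 31), 10.7% (3 of 28) and 10.8% (4 of 37), against 8.58%, 5.98% and 7.9% of those without. The microglial shares thus parted in every animal, and the ExN shares did not part in one direction. Endo with *MKI67* had *TOP2A* in 37.5%, 43.8% and 43.8%, and OPC in 38.5% (5 of 13), 44.4% (4 of 9) and 85.7% (12 of 14). Of all injured nuclei of these types, *TOP2A* was found in 6.48% ± 2.85 of Endo and 10.4% ± 5.48 of OPC. None of the shares in this paragraph was matched for depth. For *CENPE*, 59.2%, 43.3% and 56.1% of positive microglia had another member, against 19.5%, 9.15% and 14.6% of negative ones. In ExN those shares were 21.5%, 13.5% and 19.0% against 16.9%, 11.8% and 16.3%.

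Injured microglia were next described by the number of members found, with no test, since the nuclei were chosen by their counts and deeper nuclei enter more easily. Median depth was 2729 UMIs in microglia with none of the genes, 3620 with 1, 4382 with 2 and 6035 with at least 3. Relative to all UMIs of a class, the G2/M list, which holds no member, summed to 1206, 1516, 3523 and 11144 CPM over these 4 classes. In the 3 animals the highest class was at 11264, 10631 and 11149 CPM and the lowest at 1266, 1142 and 1193 CPM, so the animals that differed in the share of such nuclei were alike in this level. The S phase list went from 1010 CPM with none to 1456, 2956 and 3398 CPM. All 57 G2/M genes and 39 of 41 S phase genes were higher in the highest class than in the lowest in all 3 animals, against 15 of 24 regulators. The share of all genes that were so was not counted.

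Individual genes of the lists separated the classes to different degrees. *SMC4* was at 1005 CPM in microglia with at least 3 members against 71.9 CPM with none, and was found in 91.9% and 16.3% of nuclei. *NDC80* was at 269 against 4.81 CPM, *RRM2* at 62.1 against 0.370 CPM and *FOXM1* at 73.0 against 1.53 CPM. *GMNN* (112 against 18.3 CPM), *KIF20B* (408 against 59.4 CPM) and *E2F3* (288 against 217 CPM) differed less. *CCND3*, which was called higher in microglia as a whole, went the other way, with 36.0 CPM against 140 CPM, lower in all 3 animals. *CDKN1A*, the p21 inhibitor of the cell cycle, was at 3.27 against 21.9 CPM, from 9 and 415 UMIs.

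Microglial markers were on the whole lower in these nuclei. Summed over the 7 listed for injured nuclei, they were at 3327 CPM in microglia with none of the genes and 3069, 2602 and 2327 CPM with 1, 2 and at least 3. Of the 7 markers, 1 was higher in the highest class in all 3 animals. *P2RY12*, a purinergic receptor of homeostatic microglia, was at 158 against 148 CPM and *DOCK8* at 1155 against 1185 CPM. The receptor gene *CSF1R* (99.1 against 200 CPM) and *CD74* of antigen presentation (558 against 1317 CPM) accounted for much of the lower sum. Markers of other types in the highest and lowest class were at 2469 and 2811 CPM for monocytes and macrophages, 417 and 391 CPM for lymphocytes, 276 and 380 CPM for endothelium and 1026 and 1222 CPM for excitatory neurons.

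**Figure D5:**
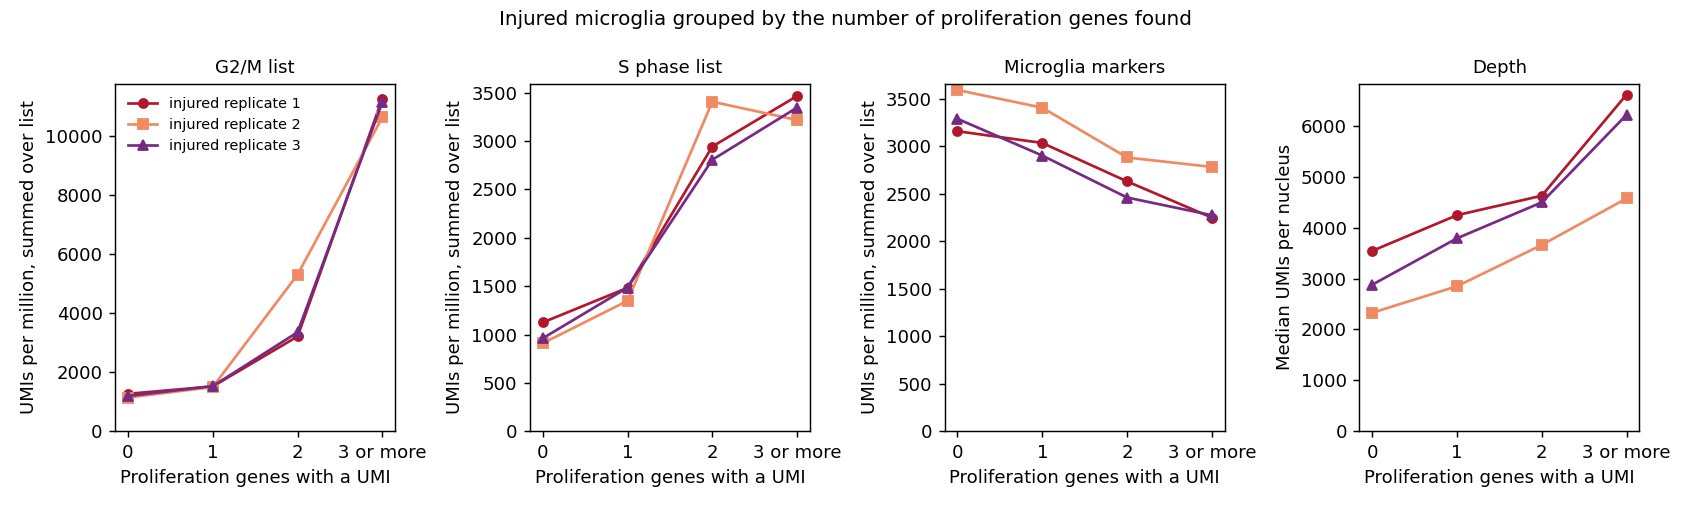
Injured microglia grouped by the number of the 6 genes found (x axis), with the summed level of the G2/M list, the S phase list and the microglial markers in CPM and the median UMIs per nucleus (y axes). Each line is 1 animal. The G2/M sum reaches 11264, 10631 and 11149 CPM in nuclei with at least 3 genes, and depth is larger over the same classes.

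These nuclei lay mostly in 1 of the 4 deposited clusters of injured microglia. Cluster 21 held 1798 nuclei, of which 355 (19.7%) had at least 3 members, or 26.7%, 10.5% and 19.5% in injured replicates 1 to 3. It held 77.9% of all such microglia. Cluster 16 had 82 among 2216 nuclei (3.7%), cluster 6 had 19 among 3698 (0.5%) and cluster 27 none among 21. Median depth was 4127 UMIs in cluster 21, 3727 in cluster 6 and 1497 in cluster 16, so cluster 6 was nearly as deep as cluster 21. The clusters were made from these counts, the members included, and the shares carry no test.

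The genes most like the members in microglia were sought among 10631 others, by the mean log2 ratio of CPM between microglia with at least 2 members and those with none, over 3 animals. The 10 with the highest values were *RRM2* (7.69 ± 1.77, SD, n = 3), *KIF14* (7.2 ± 1.62), *KIF18B* (6.72 ± 0.617), *TROAP* (6.63 ± 0.588), *HJURP* (6.45 ± 0.559), *CDCA5* (6.41 ± 1.65), *KIF20A* (6.41 ± 1.48), *SPC25* (6.20 ± 0.366), *CDK1* (6.14 ± 0.658) and *DEPDC1* (6.07 ± 0.958). *RRM2*, *KIF14*, *CDCA5* and *KIF20A* had no UMI in the second class in 1 animal each, where the added 0.5 UMI sets the ratio, so their place in the order is not read. Of the 10, 5 were in none of the lists, and the SDs are wider than the gaps between neighbours in this order. *KIF18B* was at 128, 133 and 134 CPM in the first class and 1.59, 0.691 and 1.44 CPM in the second.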

How the data were processed

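The deposited tables hold raw UMI counts per gene and nucleus. The authors aligned 10x 3' reads to the marmoset build calJac3 with an Ensembl annotation in Cell Ranger 3.1.0. They removed doublets with Scrublet in the injured cohort and by a stated upper limit of 2500 genes per nucleus in the control cohort, where 1192 of the 8610 deposited nuclei hold more, and they clustered and annotated each cohort on its own. In the deposited control table each listed gene has UMIs in at least 2 nuclei, so rare genes are not listed there. Groups follow the labels. The members and lists were chosen with earlier results of these data known.

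Shares of nuclei with UMIs of the members carry exact 95% intervals. A share of 0 is given the limit that 3 nuclei would set. Shares at 1000 UMIs are exact expectations under sampling without replacement. UMIs were summed per library and cell type. They were tested with edgeR 4.0.16 in R 4.3.3 (quasi-likelihood test, TMM factors, filterByExpr) on genes listed in both tables, with Benjamini-Hochberg adjustment over all genes tested. Calls needed an adjusted p below 0.01 and an absolute natural-log fold change above 0.25. The single control library was assumed to vary as the injured ones did. DESeq2 1.42.0 was an alternative. With the animal as a block, the 21 sums of the injured libraries gave the comparisons between cell types. On simulated data with 200 changed genes, the test of microglia against other cell types called 97.0% of genes changed 4-fold and 88.0% of those changed 2-fold. The test of injured against control microglia called 15.0% and 0%.

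The text names the members, the 5 genes of each cell cycle list with the smallest p in microglia against other cell types, called genes of these lists in injured against control microglia, and the 10 genes most like the members. The last had UMIs in all 3 animals and in at least 20 nuclei with 2 or more members, and 0.5 UMI was added before the ratio. *BRIP1* in injured against control microglia, and *CDKN1A* and the markers named beside classes of nuclei, were named after their values were seen. One gene that this rule would name is not reported here. Sequences and promoter motifs were not analysed here.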

Additional observations from a re-analysis of the deposited data

Results flagged for a closer look

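In 6 places all 3 injured animals lay on the same side of the control library, with the pooled injured counts beyond counting error, while the same gene went the other way in another cell type. The difference between cell types was not tested, and how many of all genes meet this rule was not counted. *KIF11* averaged 29.2 CPM in injured microglia, above 0 in the control, with replicate 2 under the limit that 0 control UMIs allow, and 10.9 CPM in injured ExN, below 18.5 CPM in the control. With 0 control UMIs no other direction was possible for *KIF11* in microglia, so that direction is not read as a result. *CENPE* averaged 68.6 CPM in injured microglia (8.03 CPM in the control, from 1 UMI) and 17.5 CPM in injured Astro (4.62 CPM, from 4 UMIs), both above the control. It averaged 11.4 CPM in injured Oligo (21.1 CPM) and 37.3 ± 11.8 CPM in injured InN (46.7 CPM), both below. The highest injured InN library was at 45.6 CPM, close to the control. The ratios of pooled injured to control counts were 0.579 (counting interval 0.50 to 0.66) for *KIF11* in ExN, 3.79 (1.45 to 14.1) for *CENPE* in Astro, 0.546 (0.35 to 0.89) in Oligo and 0.789 (0.65 to 0.96) in InN. These intervals cover counting error of the pooled UMIs and not the spread between animals. With 3 injured animals, single animals were not screened as outliers.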

How the results depend on the processing

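The mean share of injured nuclei with at least 2 members depended on depth. In microglia it was 4.01% at 1000 UMIs, 2.02% at 500 UMIs and 4.64% in nuclei with at most 2500 genes, in OPC 1.72% and 0.801% at 1000 and 500 UMIs, and in Endo 0.763% at 500 UMIs. At 500 UMIs all 129 control microglia remained, none positive, and their limit of 2.33% lay above the injured mean. The share of injured microglia with at least 1 member was 12.1% ± 3.61 and 7.99% ± 2.65 at 1000 and 500 UMIs. In control microglia it was 2.55% of 37 and 0.365% of 129 nuclei, both from 1 UMI of *CENPE*. In injured against control microglia, 373 genes were called at an adjusted p below 0.05, 4 with library size alone, 381 by DESeq2 and 21 in nuclei with at most 2500 genes. Without injured replicate 1, 2 or 3 the count was 6, 406 or 0, but no member was called in any of these. In Endo 2 members were called without replicate 2 (2170 of 12690 genes) and 1 without replicate 3 (1777 of 12747). Without replicate 2, 1 was called in Astro (934 of 12023 genes), OPC (877 of 11306) and Oligo (306 of 11210). In ExN 0 were called without replicate 1 (139 of 15095 genes). At an adjusted p below 0.05, 1 was called in Astro (1289 of 12445 genes) and 1 in Oligo (1134 of 11631). In ExN 2 were called at that limit (3725 of 15122 genes), of which *KIF11* was lower. With no filter 1 was called in Oligo (427 of 15763 genes), and with a UMI in 10% of nuclei 0 in ExN (582 of 15122). That condition left 5293 genes and 2 members called in microglia against other types. Signs turned, none of them of a called gene, for *CENPE* in ExN (-0.042 with library size alone, -0.15 at 2500 genes, -0.16 to 0.24 leaving out 1 injured replicate in turn) and in InN (-0.39 to 0.011 in the same way), and for *BUB1* in ExN (-0.42 to 0.37). Against neurons they turned for *KIF11* in Endo (-0.14 to 0.47, with -0.033 without replicate 1) and in OPC (-0.51 at 2500 genes), for *CENPE* in OPC (-0.0034 with no filter, -0.12 to 0.16) and for *MKI67* in Astro (-0.13 to 0.74). The cause was not tested.

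Genes called in injured against control ranged over the alternatives from 139 to 3725 in ExN (1261 as reported), 536 to 2461 in Endo (907), 412 to 2300 in InN (723), 114 to 1289 in Astro (257), 78 to 1134 in Oligo (140) and 0 to 877 in OPC (8). The G2/M genes called higher in microglia against other types ranged from 11 to 51, the S phase genes from 7 to 27 and the regulators from 7 to 14. With library size alone the calls split into 360 higher and 311 lower in Endo (578 and 329 as reported), 412 and 671 in ExN (650 and 611), 314 and 495 in InN (365 and 358), 146 and 176 in Astro (148 and 109) and 81 and 86 in Oligo (83 and 57), and into 5317 and 3299 in Endo against neurons (4177 and 5238). Over all genes the median log2 value went with it from 0.42 to 0.17 in microglia and from -0.19 to 0.15 in Endo against neurons. With no replicate block, microglia against other types had 8380 genes called (8841 with it) and the same 6 members. No paired analysis was possible because a single control library faces the injured ones. The 129 shallow control microglia limit every comparison with them.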

Other observations

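Endo nuclei with at least 3 of the genes were 54 in the injured cohort and are set here against Endo nuclei with none. Their G2/M list summed to 7918 against 1113 CPM and their S phase list to 2743 against 976 CPM, and 52 of 57 G2/M genes were higher in all 3 animals. Injured replicate 2 gave only 8 of the 54 nuclei, and the share of all genes that were higher was not counted. The 5 endothelial markers listed for injured nuclei were at 671, 2552 and 5755 CPM in injured replicates 1 to 3, against 5885, 5635 and 6494 CPM in nuclei with none. Fibroblast and mural markers were at 9700, 2455 and 4020 CPM, against 2306, 1846 and 2778 CPM. In injured replicate 1 these nuclei thus had the lowest endothelial and the highest fibroblast and mural sums. The OPC markers summed to 1096 against 212 CPM and the lymphocyte markers to 288 against 94.0 CPM, and in the pooled nuclei 1 of 3 OPC, 1 of 5 endothelial, 3 of 7 fibroblast and mural, 10 of 12 lymphocyte, 7 of 10 monocyte and macrophage, 3 of 6 astrocyte, 2 of 5 inhibitory, 1 of 7 microglial, none of 6 excitatory and none of 5 oligodendrocyte markers were higher. The median depth was 4218 against 1732 UMIs.

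OPC nuclei with at least 3 of the genes were 27. Their G2/M list summed to 10244 against 1019 CPM, close to the level in microglia of that class, and their OPC markers to 2517 against 3569 CPM, with a median depth of 6700 against 3812 UMIs. In OPC, 44 of 57 G2/M genes were higher in all 3 animals. Only 4 of the 27 nuclei came from injured replicate 2, and the share of all genes was not counted here either. The genes most like the members in Endo included *CDC20* (4.98 ± 0.0466, SD, n = 3), *DLGAP5* (4.81 ± 0.698) and *BIRC5* (4.26 ± 0.181), among 4602 candidates. In OPC, among 3742, they included *NDC80*, at 75.8, 109 and 206 CPM in nuclei with at least 2 members against 4.79, 0 and 2.12 CPM in those with none.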
